A study of Mus musculus with 4 samples.

Results

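The genes described are the contractile apparatus of the mammary myoepithelium and the receptor that triggers it: Acta2, Actg2, Myh11, Mylk, Cnn1, Tagln, Myl9, Tpm2, Lmod1 and Oxtr. They were chosen by name, as 10 of the 34615 gene rows in each count file. All 10 matched a row and passed the filter on low counts. RNA was sequenced from GFP+ basal cells (CD24+CD49fhigh) of the mouse mammary gland in 4 libraries. The 2 KO libraries came from miR-205fl/fl;RosamTmG/mTmG cells and the 2 WT libraries from WT;RosamTmG/mTmG cells. Both groups carried the mTmG reporter, which turns cells green once Cre has acted, and both received Ad-cre, an adenovirus that expresses Cre, before transplantation into SCID-Beige hosts aged 3 weeks. These hosts lack mature B and T lymphocytes. Outgrowths were taken after 8 weeks, and cells were sorted from a pool of 40 outgrowths. The comparison asked which genes differ in basal cells when the miR-205 alleles are removed. GFP marks recombination of the reporter and not of the miR-205 alleles themselves. The labels do not say whether replicates of a genotype came from separate pools, so p-values reflect only how far these 4 libraries differ, and part of that may be technical.

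Myoepithelial cells form the outer layer of mammary ducts and alveoli and contract like smooth muscle. Oxytocin from the pituitary binds its receptor on these cells, calcium rises, and calmodulin activates myosin light chain kinase, which phosphorylates the regulatory light chain so that smooth muscle myosin pulls on actin. The contraction ejects milk. Transcription of most smooth muscle genes depends on serum response factor, which binds a DNA element called the CArG box.

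MicroRNAs repress transcripts through matches to their seed, bases 2 to 8 of the mature sequence. The mature miR-205-5p and the matches to its seed in the longest annotated 3' UTR of the 10 genes are shown because they are the direct sequence link between the deleted microRNA and these transcripts. The first line is the mature microRNA (RefSeq, GRCm38.p6, chr1:193507503-193507524, minus strand) with the seed in capitals. The other lines are from GENCODE M21 transcripts (GRCm38), with the 8 bases of the match in capitals.
mmu-miR-205-5p: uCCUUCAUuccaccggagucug
Cnn1 site: gttcctacatgATGAAGGAccaactccat
Mylk site: catgagaattcATGAAGGAgaaaaaaaaa
The Cnn1 match lies at chr9:22109396-22109403 on the plus strand, at base 1165 of a 3' UTR of 1399 bases. The Mylk match lies at chr16:35001364-35001371 on the plus strand, at base 832 of a 3' UTR of 1888 bases. Both are 8mer matches (ATGAAGGA). The other 8 genes had no ATGAAGG in that UTR, whose length ran from 80 bases in Actg2 to 3391 bases in Oxtr. Of 21173 genes with an annotated 3' UTR, 4.74% held the 8mer and 12.4% held ATGAAGG.

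Gene counts per library ran from 47953972 to 60030932. KO replicate 2 stood apart: 12679 genes had a count there, against 18027 to 18897 in the other 3 libraries. Levels are given as CPM, counts scaled to a common library total, with the trimmed mean of M-values (TMM) as scaling between libraries. Of 3540 genes at 1 to 5 CPM in WT, 40.6% had a count of 0 in that library, against 0.593% in KO replicate 1. Mir205 itself had 0 counts in all 4 libraries, where 0 counts allow up to 0.05 to 0.0626 CPM, so it gave no check of the labels. Results are therefore given for each KO library against the WT pair as well as for the groups. The basal markers Krt5, a keratin of the basal layer, and Itga6, the CD49f antigen of the sort, were abundant. Krt5 had 1773 and 1512 CPM in KO and 1219 and 1219 CPM in WT. Itga6 had 2498 and 2637 CPM in KO and 2213 and 2020 CPM in WT. Other basal markers went the other way. Of 8 tested, 5 had a positive and 3 a negative log2 fold change between the groups. Col17a1, named after its values were seen, had 1025 and 961 CPM in KO and 1265 and 1197 CPM in WT.

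Per kilobase of exon, Acta2 was the most abundant of the 10 genes in every library, at 1688 and 1031 CPM per kilobase in KO and 1135 and 1061 in WT. Tpm2 came next (265 to 448 CPM per kilobase over the 4 libraries), then Myh11 (162 to 244) and then Myl9 (94.0 to 212), in this order in every library. The ranges of Myh11 and Myl9 overlapped between libraries. The other 6 genes lay between 12.5 and 116 CPM per kilobase, with ranges that overlapped those of their neighbours, and their order changed between libraries. Lmod1 was last in 3 libraries and Oxtr in WT replicate 2. Oxtr ranked 9 and 5 of the 10 in KO, and 8 and 10 in WT.

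**Figure D1:**
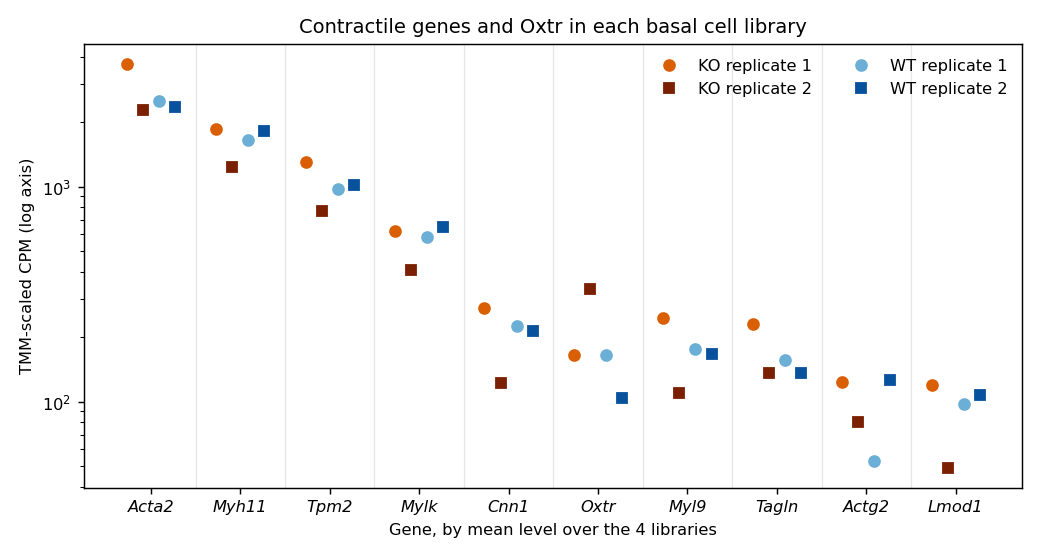
TMM-scaled CPM (log axis) of the 10 genes in each of the 4 libraries, with 1 point per library. For Acta2, Tpm2, Cnn1, Myl9, Tagln, Myh11 and Lmod1 the point of KO replicate 1 is the highest and that of KO replicate 2 the lowest, while Oxtr is highest in KO replicate 2.

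Acta2 (ENSMUSG00000035783, chromosome 19) encodes smooth muscle alpha-actin, the main thin filament protein of myoepithelial cells. It had 3707 and 2264 CPM in KO replicates 1 and 2, and 2493 and 2331 CPM in WT replicates 1 and 2. KO replicate 1 lay above both WT libraries and KO replicate 2 just below both. The group means were 2986 ± 1020 CPM in KO and 2412 ± 114 CPM in WT (SD, n = 2 each), a log2 fold change of 0.31 ± 0.28 (SE) that did not pass the edgeR quasi-likelihood test (adjusted p = 0.9989). KO replicate 1 alone was 1.54 times the WT mean and did not pass against the WT pair (edgeR adjusted p = 0.9998).

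Actg2 (ENSMUSG00000059430, chromosome 6), the smooth muscle gamma-actin, was a low-abundance companion. It had 123 and 80.2 CPM in KO, and 52.8 and 125 CPM in WT. The WT libraries differed 2.37-fold, more than the KO libraries (1.53-fold), and the genotypes overlapped. Actg2 was the only one of the 10 genes whose WT libraries differed 2-fold or more, which was seen in 15.3% of tested genes and in 1.05% of those with a mean of 50 CPM or more. The actin genes have closely related coding sequences, so reads could be shared between them. The count files listed 0 reads of non-unique alignment, which does not tell whether such reads were absent or removed before counting. The striated muscle actins Acta1 and Actc1 had at most 14 and 52 counts in any library. Sharing of reads between the actin genes was not tested.

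The motor and its regulation followed. Myh11 (ENSMUSG00000018830, chromosome 16) encodes the smooth muscle myosin heavy chain and had 1854 and 1228 CPM in KO, and 1644 and 1813 CPM in WT. KO replicate 1 was barely above the WT pair, and KO replicate 2 was lower than every other library. Myl9 (ENSMUSG00000067818, chromosome 2), the regulatory light chain phosphorylated during contraction, had 246 and 109 CPM in KO, and 176 and 166 CPM in WT. Its WT libraries were close together, with 1 KO library above and the other below them. Mylk (ENSMUSG00000022836, chromosome 16), the calcium- and calmodulin-dependent kinase of that light chain, had 619 and 409 CPM in KO, and 582 and 650 CPM in WT. KO replicate 1 lay within the WT range and KO replicate 2 below it. None of the 3 genes passed between the groups, with log2 fold changes of -0.17 ± 0.25 for Myh11, 0.05 ± 0.42 for Myl9 and -0.26 ± 0.26 for Mylk. Mylk carries 1 of the 2 seed matches shown above, and the part of that match in its levels was not tested. Its KO mean was 514 ± 149 CPM and its WT mean 616 ± 48.2 CPM, while KO replicate 1 alone was 1.01 times the WT mean.

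The thin filament genes differed between the KO libraries by 1.69-fold in Tpm2 and Tagln, 2.24-fold in Cnn1 and 2.41-fold in Lmod1, beside 2.25-fold in Myl9. Cnn1 (ENSMUSG00000001349, chromosome 9) encodes calponin 1, which binds actin and restrains myosin activity. It had 273 and 122 CPM in KO, and 224 and 213 CPM in WT. Cnn1 holds the other seed match, whose part in its levels was not tested. Its group means were 197 ± 107 CPM in KO and 219 ± 7.66 CPM in WT, a log2 fold change of -0.15 ± 0.41 (adjusted p = 0.9989, edgeR). The WT libraries agreed closely and the KO libraries stood 2.24-fold apart on either side of them. Lmod1 (ENSMUSG00000048096, chromosome 1), leiomodin 1, starts new actin filaments in smooth muscle. It had 119 and 49.3 CPM in KO, and 97.5 and 107 CPM in WT, the widest gap between KO libraries of the 10 genes (2.41-fold) and a log2 fold change of -0.28 ± 0.47. Tpm2 (ENSMUSG00000028464, chromosome 4), beta-tropomyosin, lies along the actin filament. It had 1303 and 772 CPM in KO, and 975 and 1021 CPM in WT, with a log2 fold change of 0.06 ± 0.29. Tagln (ENSMUSG00000032085, chromosome 9), the actin-bundling protein transgelin or SM22-alpha, had 229.8 and 136 CPM in KO, and 156 and 136 CPM in WT. For Tagln only KO replicate 1 stood clear of the rest, and the log2 fold change was 0.33 ± 0.32. Exons of Tagln share 108 bases with the opposite-strand gene Pcsk7 in GENCODE M21, so some of their reads could not be told apart, since the strand setting is not given in the sources used here.

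Oxtr (ENSMUSG00000049112, chromosome 6), the oxytocin receptor, did not follow the contractile genes. It had 165.4 and 333 CPM in KO, and 165.2 and 104 CPM in WT. KO replicate 1 and WT replicate 1 were level, and KO replicate 2 was 2.47 times the WT mean. The group means were 249 ± 118 CPM in KO and 135 ± 43.2 CPM in WT, the largest log2 fold change of the 10 genes at 0.89 ± 0.43, which did not pass (unadjusted p = 0.09472 and adjusted p = 0.9989, edgeR). Both KO libraries were above both WT libraries with TMM scaling, as in 13.2% of all tested genes and 23.2% of those with a mean of 50 CPM or more, but the margin of KO replicate 1 was lost with DESeq2 size factors (163 CPM against 165 CPM in WT replicate 1) and with total count scaling (173 CPM against 175.5 CPM). Per kilobase, Oxtr reads were 0.0674 of Acta2 reads in KO replicate 2 and 0.0204 in KO replicate 1, against 0.0304 and 0.0205 in WT.

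Between the groups, 0 of the 10 genes and 0 of 15364 tested genes (0%) were called at an adjusted p under 0.05. Before adjustment 147 genes had p under 0.05, none of them among the 10. DESeq2 called 4 genes and limma voom 0, again none of the 10. Of the fold changes of the 10 genes, 6 were positive and 4 negative, with a median of 0.05 on the log2 scale. Over all tested genes the median was -0.14, and over the 3635 tested genes with a mean of 50 CPM or more, a level all 10 genes reached, it was 0.13. In these bulk libraries, a difference in the share of contractile cells cannot be told apart from a difference in contractile RNA per cell.

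**Figure D2:**
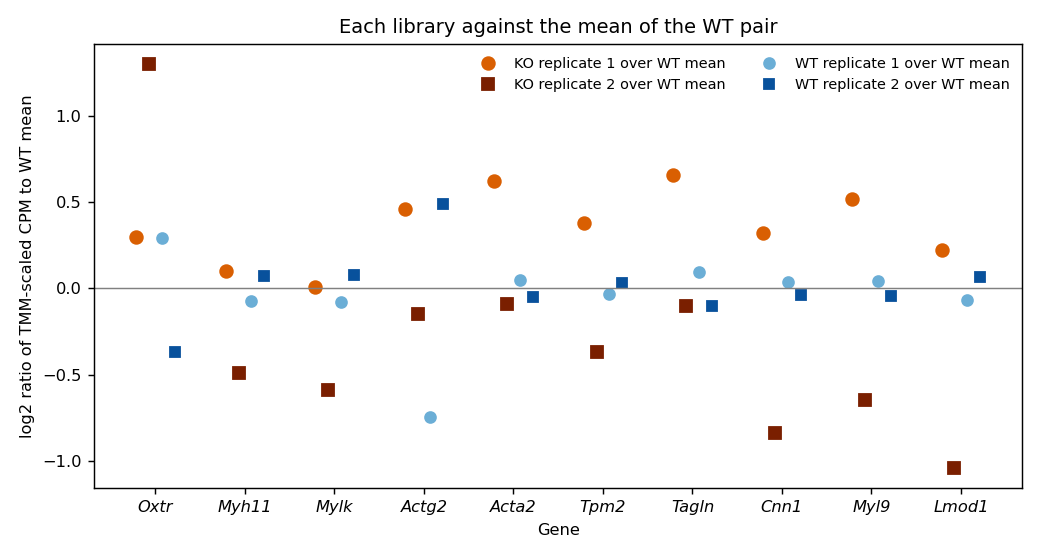
Log2 ratio of TMM-scaled CPM in each library to the mean of the WT pair, with 1 point per library for the 10 genes, ordered by the gap between the KO libraries. All 10 points of KO replicate 1 lie above 0, from 0.01 for Mylk to 0.66 for Tagln, and 9 points of KO replicate 2 lie below 0, with Oxtr at 1.30.

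For most of the 10 genes the KO libraries lay on opposite sides of WT. KO replicate 1 was above both WT libraries in 8 of the 10 genes, namely Acta2, Myh11, Cnn1, Tagln, Myl9, Tpm2, Lmod1 and Oxtr, and below both in 0. Over all tested genes 31.4% were above both and 30.9% below both, and over those of 50 CPM or more 36.6% and 31.1%. The median log2 ratio to the WT mean was 0.35 for the 10 genes, -0.02 for all tested genes and 0.01 for those of 50 CPM or more. In the edgeR fit of KO replicate 1 against the WT pair, 0 of 16904 genes (0%) were called, and 474 had an unadjusted p under 0.05. Those 474 included 4 of the 10 genes (Acta2, Tagln, Tpm2 and Myl9), none of which passed over all genes. The log2 fold changes of the 10 in this fit were largest for Tagln (0.66 ± 0.18), Acta2 (0.62 ± 0.09), Myl9 (0.52 ± 0.17) and Actg2 (0.47 ± 0.44).

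KO replicate 2 was below both WT libraries in 8 of the 10 genes, all but Actg2 and Oxtr. This was so for 54.9% of all tested genes and for 31.5% of those with a mean of 50 CPM or more. Of the 10 genes Oxtr alone was above both there, as were 34.2% of all tested genes and 58.2% of those at 50 CPM or more. The median of the 10 genes was -0.43, close to the -0.42 of all tested genes, while genes of 50 CPM or more had a median of 0.23. Against the WT pair by edgeR, Cnn1 (log2 fold change -0.85 ± 0.18, adjusted p = 0.01306), Lmod1 (-1.06 ± 0.24, 0.01552), Myh11 (-0.50 ± 0.12, 0.01976), Mylk (-0.60 ± 0.15, 0.02341) and Myl9 (-0.65 ± 0.20, 0.03897) were lower, and Oxtr (1.30 ± 0.27, 0.01073) was higher. The lone KO library is assumed there to vary like the WT pair. In the same fit 22.5% of all genes were called lower and 12.4% higher. Tpm2 (adjusted p = 0.05709), Tagln (0.6872), Acta2 (0.4757) and Actg2 (0.8043) did not pass.

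A position above both WT libraries in KO replicate 1 and below both in KO replicate 2 was taken by 7 of the 10 genes: Acta2, Myh11, Cnn1, Tagln, Myl9, Tpm2 and Lmod1. Of all tested genes 15.3% did so, and of those at 50 CPM or more 10.7%. Under DESeq2 size factors Tagln left this group and 6 genes remained in it. The 9 contractile genes summed to 8474 and 5169 CPM in KO, and to 6400.2 and 6563 CPM in WT. KO replicate 1 exceeded KO replicate 2 by 2-fold or more in Cnn1, Myl9 and Lmod1, as in 32.7% of all tested genes and 6.24% of those at 50 CPM or more.

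**Figure D3:**
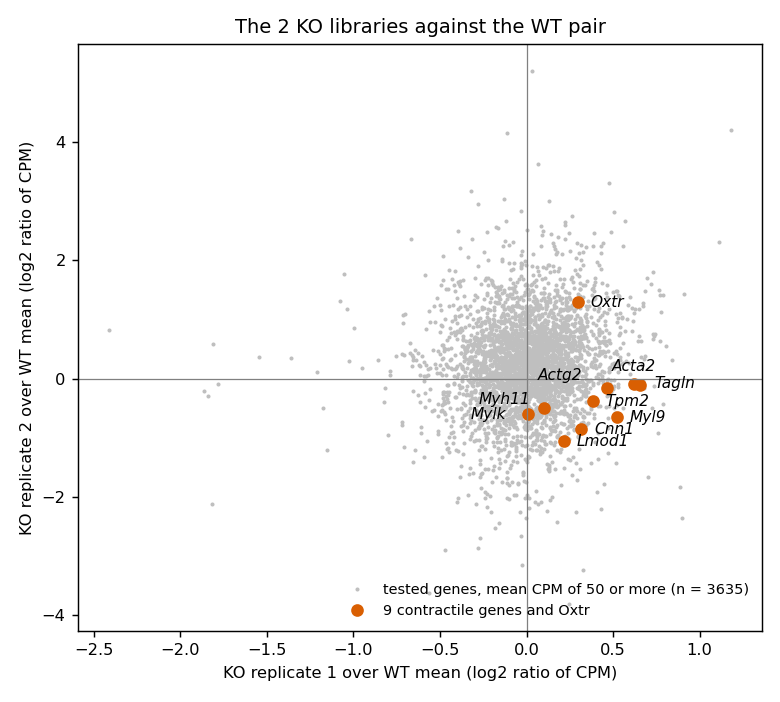
Log2 ratio to the WT mean in KO replicate 1 (x axis) and KO replicate 2 (y axis) for the 3635 tested genes with a mean of 50 CPM or more (grey points), with the 10 genes in orange and named. The 9 contractile genes lie right of 0 on the x axis and below 0 on the y axis, and Oxtr lies above 0 on both.

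Ratios within a library do not depend on scaling between libraries, so each contractile gene with a nonmuscle relative was divided by its most abundant relative, per kilobase of exon. These 7 pairs were chosen after the values were seen. Acta2 to Actb, the cytoplasmic beta-actin, was 1.59 and 0.600 in KO, and 1.19 and 1.09 in WT. Myh11 to Myh9, a nonmuscle myosin heavy chain, was 3.30 and 2.35 in KO, and 2.67 and 2.78 in WT. Both ratios were highest in KO replicate 1 and lowest in KO replicate 2. Myl9 to Myl12a, another regulatory light chain, was 3.68 and 1.83 in KO, and 2.31 and 2.27 in WT. Tpm2 to Tpm4, a tropomyosin of nonmuscle cells, was 0.984 and 0.720 in KO, and 0.777 and 0.751 in WT. Cnn1 to Cnn3, the calponin of many nonmuscle cells, was 2.07 and 0.659 in KO, and 2.12 and 1.52 in WT. For Cnn1 the KO replicate 1 ratio lay within the WT range, and KO replicate 2 was 0.361 times the WT mean. Tagln to Tagln2 was 0.372 and 0.321 in KO, and 0.366 and 0.287 in WT, and Actg2 to Actb was 0.0742 and 0.0300 in KO, and 0.0357 and 0.0827 in WT. In all, 5 of the 7 ratios were above both WT libraries in KO replicate 1 and 6 of 7 were below both in KO replicate 2. How often ratios of other gene pairs take these positions was not computed. Some margins were small, as for Tpm2 to Tpm4 in KO replicate 2 (0.942 times the WT mean). The pairs with Actb share a relative that was itself higher in KO replicate 2 (edgeR adjusted p = 0.002611 against the WT pair): there Acta2 to Actb was 0.525 and Actg2 to Actb 0.506 times the WT mean, while the CPM of Acta2 was 0.939 and that of Actg2 0.901 times the WT mean.

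**Figure D4:**
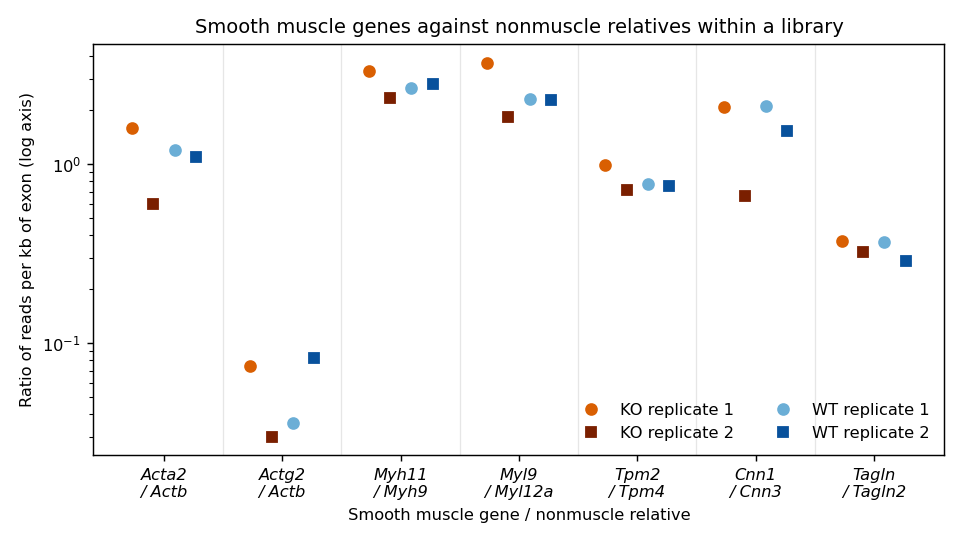
Ratio of reads per kilobase of exon (log axis) of 7 smooth muscle genes to a nonmuscle relative within each library, with 1 point per library. KO replicate 2 has the lowest point in every pair except Tagln to Tagln2, where WT replicate 2 is lowest.

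Other parts of the contraction machinery were read from lists of pathway genes, with 0 members of any list called between the groups. Other smooth muscle and dense plaque genes had 8 positive and 11 negative fold changes of 19 tested (median -0.02). The most abundant were Tpm1, alpha-tropomyosin, with 2210 and 2041 CPM in KO and 2131 and 2143 CPM in WT, Cald1, caldesmon, with 1752 and 2206 CPM in KO and 1957 and 2721 CPM in WT, and Lpp, a focal adhesion protein, with 1943 and 2287 CPM in KO and 2130.0 and 2050.5 CPM in WT. Tpm1 was level in all 4 libraries, unlike Tpm2. The median log2 ratio of this list to the WT mean was 0.03 for KO replicate 1 and -0.07 for the other KO library. In the edgeR fit of KO replicate 2 against the WT pair, 4 members were lower (Synm, Pdlim3, Itga8 and Synpo2) and 3 higher (Pdlim7, Tln1 and Palld), all named after their values were seen, against 22.5% lower and 12.4% higher over all genes of that fit.

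Regulators of smooth muscle genes were 6 positive and 4 negative of 10 tested (median 0.05). Csrp1, a LIM protein of smooth muscle, had 732 and 950.03 CPM in KO and 687 and 553 CPM in WT. Both KO libraries lay above both WT libraries, as in 13.2% of all tested genes and 23.2% of those at 50 CPM or more. The log2 fold change of Csrp1 was 0.44 ± 0.23. Mef2a and Mef2d, transcription factors of muscle genes, had log2 fold changes of 0.12 ± 0.22 and 0.09 ± 0.25. Srf, serum response factor, outside the naming rule, had 88.9 and 91.9 CPM in KO and 102 and 92.0 CPM in WT.

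Relatives of the 10 genes outside smooth muscle were 7 positive and 5 negative of 12 tested (median 0.29). Actb had 2852 and 4605 CPM in KO and 2547 and 2605 CPM in WT, a log2 fold change of 0.53 ± 0.27. Myh9 had 956 and 890 CPM in KO and 1047 and 1109 CPM in WT. Both KO libraries were below both WT libraries, as in 19.2% of all tested genes and 11.3% of those at 50 CPM or more. Tpm4 had 1003 and 812 CPM in KO and 950.4 and 1029.9 CPM in WT. Neither Myh9 nor Tpm4 passed the test.

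Signalling genes between the oxytocin receptor and the myosin light chain were 16 positive and 12 negative of 28 tested (median 0.09). Atp2a2, the pump that returns calcium to its store, had 1442 and 1585.5 CPM in KO and 1292 and 1213.5 CPM in WT. Both KO libraries were above both WT libraries, but the gene was uncalled. Of all tested genes 13.2% took that position, and of those at 50 CPM or more 23.2%. Rock2, a kinase that inhibits myosin phosphatase, had 1193 and 794 CPM in KO and 1147 and 1225 CPM in WT. Arhgef12, which activates RhoA downstream of G-protein-coupled receptors, had 759 and 1216 CPM in KO and 857 and 925 CPM in WT. Against the WT pair, KO replicate 2 was called lower in 3 of 29 genes and higher in 3, no larger a share in either direction than the 22.5% and 12.4% of all genes. Rock2 was lower (edgeR adjusted p = 0.0131) and Gnaq, the G-protein subunit that couples the oxytocin receptor to calcium, was higher (0.01494). Gnaq, named after its values were seen, had 245 and 532 CPM in KO and 199 and 302 CPM in WT.

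Other receptors that drive contraction were 5 positive and 6 negative of 11 tested (median -0.12). F2r, a thrombin receptor, had 98.9 and 119 CPM in KO and 73.0 and 100.06 CPM in WT. P2ry1, a receptor for ADP, had 40.9 and 38.6 CPM in KO and 59.5 and 44.2 CPM in WT. Ednra, the endothelin A receptor, had 17.2 and 62.0 CPM in KO and 24.5 and 16.6 CPM in WT. Its log2 ratio to the WT mean in KO replicate 2 was 1.57, while the median of this list was -0.41. In that library 4 of the 11 genes were above both WT libraries and 6 below both. Over all tested genes those shares were 34.2% and 54.9%.

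Pericytes and vascular smooth muscle also express contractile genes, so their markers were read in each library. Of 11 matched markers, 1 and 6 were at 0 in KO, and 0 and 1 were at 0 in WT. Their summed level was 201 and 225 CPM in KO, and 162 and 287 CPM in WT. The markers did not move one way. Pdgfrb, a defining receptor of pericytes, had 6.59 and 0 CPM in KO and 7.36 and 9.04 CPM in WT. Notch3, a receptor of vascular smooth muscle, had 7.83 and 51.0 CPM in KO and 8.73 and 18.7 CPM in WT. Des, the muscle intermediate filament protein desmin, had 3.25 and 13.9 CPM in KO and 0.941 and 4.91 CPM in WT. These 3 were named after their values were seen. The 2 most abundant were Rgs5, with 76.0 and 39.5 CPM in KO and 53.7 and 130 CPM in WT, and Mcam, with 83.6 and 103 CPM in KO and 78.7 and 82.2 CPM in WT. The sum was lower in WT replicate 1 than in WT replicate 2, as was Actg2, and the part of these cells in that difference was not tested. Skeletal muscle markers were at or near 0, with 0.0636 and 0 CPM in KO and 1.46 and 0.773 CPM in WT summed over 6 genes.

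Basal markers summed to 8435 and 8256 CPM in KO, and to 7692 and 7527 CPM in WT over 8 matched genes. The gap between the KO libraries was smaller than in the contractile sum, but single markers differed in opposite directions. Trp63 had 901 and 1309 CPM in KO and 1048.5 and 904 CPM in WT. Lama3 had 1085 and 784 CPM in KO and 1086 and 1101.5 CPM in WT. Trp63 and Lama3 were named after their values were seen. Luminal markers summed to 1084 and 1668 CPM in KO and 985 and 1470.1 CPM in WT, led by Krt8 and Epcam. Fibroblast markers summed to 681 and 918 CPM in KO and 575 and 635 CPM in WT, led by Fbn1 and Dcn. Endothelial markers summed to 163 and 91.1 CPM in KO and 118 and 199 CPM in WT, led by Cdh5 and Vwf. Immune markers summed to 98.0 and 319 CPM in KO and 67.3 and 149.8 CPM in WT, led by Cd74 and Ptprc. Cd74 alone had 71.9 and 289 CPM in KO and 56.1 and 136 CPM in WT. Of the 7 matched immune markers, 3 were above both WT libraries in KO replicate 2 and 4 were below both. The part of these cells in the contractile values was not tested.

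Promoter stretches are shown for Acta2 and Myl9, chosen because theirs were the only windows searched that held a CArG box of the form below. Cnn1, Lmod1 and Tpm2 were also high in KO replicate 1 and low in KO replicate 2, and their windows held none. A link between the boxes and the levels was not tested. RefSeq (GRCm38.p6) gave windows of 300 bases for 7 of the 10 genes, all but Actg2, Myh11 and Tagln. Both strands were searched, where the box reads alike, and the capitals mark boxes that keep the outer CC and GG and allow at most 1 G or C among the 6 inner bases. The Acta2 stretch is chr19:34255394-34255493 on the minus strand, and the Myl9 stretch chr2:156775283-156775382 on the plus strand.
Acta2 promoter: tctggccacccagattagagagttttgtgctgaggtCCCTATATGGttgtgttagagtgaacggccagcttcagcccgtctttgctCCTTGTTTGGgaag
Myl9 promoter: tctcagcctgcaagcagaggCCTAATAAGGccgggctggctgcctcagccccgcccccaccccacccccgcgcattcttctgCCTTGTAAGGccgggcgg
The Acta2 boxes begin 84 and 34 bases before the start site, and the Myl9 boxes 161 and 99 bases before it. No box of this form was found in the windows of Cnn1, Lmod1, Mylk, Oxtr and Tpm2. Such a box was present in 2 of the 7 windows and in 9.98% of all 32851 promoter windows. The strict form, with A or T at all 6 inner positions, was present in 1 of the 7 (Myl9) and in 1.63% of all.

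Genes near the median profile of the 10 over the 4 libraries were outside the smooth muscle lists. By root mean square distance of centred log2 CPM among 3625 other genes at 50 CPM or more, they included Rpl10-ps1 (0.045), a ribosomal protein pseudogene, Utp4 (0.057), a ribosome assembly factor, Gdi2 (0.064), a regulator of Rab proteins, and Fam102a (0.064). Of the 10 genes themselves, Tpm2 was nearest to that profile (0.036), Actg2 (0.445) and Oxtr (0.813) farthest, and 91.1% of the other genes were nearer to it than Oxtr. This is a description over 4 libraries.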

How the data were processed

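RNA of sorted basal cells was measured in 2 KO and 2 WT libraries, grouped by their labels. The deposited files hold raw counts of reads, as whole numbers, for each Ensembl gene. The submitters' processing notes name TopHat2 (2.02), HTSeq and, as build, NCBIM37 (mm9). Neither annotation release nor strand setting is stated there. Libraries were made with NuGEN and Illumina protocols from PicoPure RNA, per the labels' protocols. Low-input amplification without molecular identifiers means that floors (3 counts) cover counting error only.

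The 5 summary rows were left out. Symbols came from GENCODE M21 by gene identifier (30082 rows, 86.9%, with 98.6% of counts), and exon lengths from the same annotation, made on a newer build than the alignments. Genes were tested with edgeR 4.0.16 (filterByExpr, TMM, quasi-likelihood test, genotype only, Benjamini-Hochberg over all tested genes, threshold 0.05) in R 4.3.3. SE is the log2 fold change divided by the root of its F statistic. Single-library ratios used log2(CPM + 0.5). The procedure was tested on simulated counts with larger changes and a smaller spread between libraries than in these data. That test does not show which changes could be called here. Alternatives were DESeq2 1.42.0, limma 3.58.1 voom, other scalings, filters and pseudocounts, a replicate block, and each library left out.

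The 10 genes and the lists were chosen with earlier results of these data known. Named genes were these 10, the 3 most abundant of each pathway list, the 2 most abundant of each marker list and the 5 of nearest profile, of which 1 is not reported here; others are stated. Smtn, Kcnmb1, Myocd, Actg1, Myh10, Adra1b and Krt14, among others in the lists, were not analysed here. Genes of 50 CPM or more as a comparison, and the ratios to relatives, were added after seeing the data.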

Additional observations from a re-analysis of the deposited data

How the results depend on the processing

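The 10 genes stayed uncalled between KO and WT under every scaling, filter and tool tried and with the replicate block (0 of 10 in each). All these settings used the same 4 libraries. The spread that edgeR estimated between libraries of a group was wide in the main fit (coefficient of variation 0.932). Changes of moderate size could therefore go uncalled, and 0 calls do not show that the genes were unchanged. Over all genes the DESeq2 test called 4 and, with each library left out in turn, edgeR called 0 to 5724 genes, 0 to 6 of the 10 genes and 0 to 22 other pathway genes. The highest of each came without KO replicate 1, which leaves only KO replicate 2, where fewer genes had a count, set against WT. Upper quartile and total count scaling turned the log2 fold changes of Myl9 (-0.02 and -0.03) and Tpm2 (-0.03 and -0.04) negative, and the replicate block that of Myl9 (-0.06). The block changed no call, with 79 genes at an unadjusted p under 0.05 and 0 called; deviations of same-numbered libraries had a correlation of 0.02 across genes, so the numbers were not taken to pair the libraries. Leaving out 1 library moved the fold change of Acta2 between -0.10 and 0.62, Actg2 between -0.30 and 0.95, Tagln between -0.11 and 0.66, Myl9 between -0.65 and 0.52, Tpm2 between -0.37 and 0.39, Myh11 between -0.50 and 0.10, Mylk between -0.60 and 0.01, Cnn1 between -0.85 and 0.32 and Lmod1 between -1.06 and 0.22; the cause was not tested. Oxtr stayed positive, from 0.30 to 1.30. The median of the 10 genes in KO replicate 1 was 0.33 with DESeq2 size factors, 0.34 with upper quartile scaling and 0.35 without either WT library. In KO replicate 2 it was -0.41, -0.66 and, with total count scaling, -0.70, and -0.58 to -0.38 without a WT library. Those scalings also moved the median of all tested genes in KO replicate 2 from -0.42 to between -0.59 and -0.41. Relative to genes of 50 CPM or more, the 10 genes stayed at -0.67 to -0.66 in that library and at 0.34 in KO replicate 1.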

Other observations

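Values follow for the 4 genes of the list of other smooth muscle and dense plaque genes that were called lower in KO replicate 2, chosen after their values were seen. In that library 3 genes of the same list, Pdlim7, Tln1 and Palld, were called higher, and of all genes 22.5% were called lower and 12.4% higher. Synm, an intermediate filament protein of muscle, had 38.1 and 1.01 CPM in KO and 38.0 and 43.6 CPM in WT. Pdlim3, a Z-disc and dense body protein, had 92.1 and 18.1 CPM in KO and 60.8 and 77.8 CPM in WT. Itga8, an integrin chain of contractile cells, had 92.8 and 28.0 CPM in KO and 90.4 and 97.4 CPM in WT, and Synpo2, an actin-bundling protein, had 118 and 51.0 CPM in KO and 94.9 and 129 CPM in WT. KO replicate 1 lay within the WT range for Synm, Itga8 and Synpo2 and above it for Pdlim3, while KO replicate 2 was called lower against the WT pair by edgeR (adjusted p from 0.002365 for Synm to 0.01933 for Synpo2).

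From the signalling list, where 3 genes were called lower and 3 higher in that library, these were also chosen after their values were seen. Calm3, which encodes calmodulin, had 20.4 and 0.216 CPM in KO and 19.3 and 22.0 CPM in WT, and Orai1, a plasma membrane calcium channel, had 11.1 and 0.671 CPM in KO and 17.1 and 14.4 CPM in WT. The part of the lower gene detection in KO replicate 2 in these values was not tested.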
